A study of Mus musculus with 9 samples.

Results

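The 9 genes described here encode subunits of AP-1, a transcription factor built as a dimer of basic leucine zipper (bZIP) proteins: Fos, Fosb, Fosl1 and Fosl2 of the FOS family, Jun and Jund of the JUN family, and the related Atf3, Batf and Maff. They were taken by symbol from the array's probe annotation, 9 of 30142 named genes, and each had 1 probeset that carries this symbol and no other. The further JUN family gene Junb shares its probeset with another gene and was not analysed here. Signals came from Affymetrix whole-transcript arrays of LSK cells (lineage-negative, Sca-1+, c-Kit+ marrow cells, which hold the blood stem cells and earliest progenitors), with 1 array per mouse. The 4 knockout (KO) mice were Abi1(-/-);Tg(Mx1-cre(+)) and the 5 wild-type (WT) mice Abi1(fl/fl);Tg(Mx1-cre(-)). All mice, KO and WT, were given poly(I:C) in 3 injections at 8 to 9 weeks of age, which turns on the interferon-driven Mx1 promoter of the Cre transgene, and at 12 to 14 weeks their LSK cells were sorted and frozen. Cre was present in KO mice only, so its own effect and that of losing Abi1, an adaptor of the actin-branching WAVE complex, cannot be told apart. The labels name no litter, sort day or scan day, and p-values measure the spread between these mice.

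FOS proteins cannot pair with each other and mostly take a JUN partner, whereas JUN proteins also pair among themselves. Fos, Fosb, Jun and Atf3 are early response genes: signals that run through MAP kinases switch them on within minutes in many cell types. Stem and progenitor cells use AP-1 in responses to cytokines, stress and inflammatory signals.

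The 250 bases before an annotated start are printed for Fos, Fosb, Jun and Atf3, whose signals were low in the same arrays, and for Jund, the member whose groups did not overlap. For Fosb this start lies inside the listed span of the gene (chr7:19302696-19310118), which the window overlaps. The marked half-site of Fosb falls within this overlap. The sequences are RefSeq's, build GRCm38.p6, given 5′ to 3′ on the gene's strand. Capitals mark the letters found by a search of both strands for TGACGTCA (the cyclic AMP response element, CRE), its half-site TGACG, the looser form TGACNTCA, the AP-1 site TGANTCA, the TATA box TATAAA, and the CArG box of serum response factor by its name. The half-site lies within TGACGTCA, and TGACNTCA covers TGACGTCA, so such matches overlap.
Fos (chr12:85473640-85473889, plus strand): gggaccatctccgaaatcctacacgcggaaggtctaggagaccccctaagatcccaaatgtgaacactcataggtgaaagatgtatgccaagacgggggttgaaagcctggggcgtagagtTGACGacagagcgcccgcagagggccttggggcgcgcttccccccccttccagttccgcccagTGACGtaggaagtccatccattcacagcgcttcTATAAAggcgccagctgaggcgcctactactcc
Fosb (chr7:19310046-19310295, minus strand): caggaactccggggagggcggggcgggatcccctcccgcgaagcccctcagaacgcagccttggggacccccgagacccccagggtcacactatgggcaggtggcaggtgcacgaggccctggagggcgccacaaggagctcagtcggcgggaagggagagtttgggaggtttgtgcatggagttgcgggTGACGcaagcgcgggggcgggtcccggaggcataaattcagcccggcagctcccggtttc
Jun (chr4:95052223-95052472, minus strand): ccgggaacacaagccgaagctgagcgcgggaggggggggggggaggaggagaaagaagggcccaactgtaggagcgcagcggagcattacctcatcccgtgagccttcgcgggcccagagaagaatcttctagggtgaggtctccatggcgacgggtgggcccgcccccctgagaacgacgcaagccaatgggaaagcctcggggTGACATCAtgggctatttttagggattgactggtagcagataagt
Atf3 (chr1:191183334-191183583, minus strand): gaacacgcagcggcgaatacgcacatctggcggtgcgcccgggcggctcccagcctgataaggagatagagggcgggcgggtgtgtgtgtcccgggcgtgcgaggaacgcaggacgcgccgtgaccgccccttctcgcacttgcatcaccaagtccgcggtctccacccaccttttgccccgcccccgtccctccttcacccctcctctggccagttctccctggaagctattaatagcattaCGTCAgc
Jund (chr8:70697489-70697738, plus strand): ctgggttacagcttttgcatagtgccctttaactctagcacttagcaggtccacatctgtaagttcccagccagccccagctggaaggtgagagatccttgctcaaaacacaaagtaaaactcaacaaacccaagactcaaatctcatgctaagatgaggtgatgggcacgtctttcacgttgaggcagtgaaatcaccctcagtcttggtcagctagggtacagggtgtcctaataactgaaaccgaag

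The table holds windows for 8 of the 9 members (all but Fosl1). The half-site was found in the printed windows of Fos (at -129 and -66 from the start), Fosb (at -60) and Atf3 (at -7, on the opposite strand), and also in that of Batf (at -98), which did not share the array pattern. Of 32851 RefSeq windows of this length 17.8% hold it. The Jun window holds TGACATCA at -45, a form that 7.49% of windows contain. Maff has 3 annotated starts, and the window of the second holds the full TGACGTCA at -29, found in 1.55% of windows; the third holds the half-site at -122 and TGACATCA at -45. TATAAA was found in the Fos window alone among the members, at -33, and in 12.4% of all windows. No search letters were found in the windows of Jund and Fosl2. TGANTCA (6.75% of all windows) and the CArG box (1.47%) were found in none of the members' windows, which says only that these letters are not in the 250 bases.

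The targeted gene was checked first: Abi1 had log2 signals of 5.59 to 6.11 in KO and 11.49 to 11.65 in WT (difference -5.73, limma adjusted p = 7.42e-08), as each array's label says. Background, the percentile 95 of each array's signals for 1717 smell and pheromone receptor genes (Olfr and Vmn), lay at 5.32 to 5.64 in KO and 5.29 to 5.37 in WT. Of the LSK and stem cell markers 14 of 17 were measured and all 14 lay above background, with Kit at 13.82 to 14.58 in KO and 14.39 to 14.78 in WT; Ly6a, which encodes Sca-1, had no probeset of its own. A pair of arrays differed from the rest: the median correlation across genes with the remaining arrays was 0.986 for KO replicate 1 and 0.989 for WT replicate 5, and 0.993 to 0.996 for the other 7. The chance that a positive control probeset outshines a negative one was also lowest there (0.775 and 0.756, against 0.803 to 0.827 elsewhere).

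Of the 9 members, 8 had mean signals above background, and each of the 8 was above it in all 9 arrays. Fosl1, which encodes FRA-1, was at or below 5.11 in KO and 4.96 in WT, under the background of its own array in all 9. Most of the other members had low signals in WT replicates 2 and 3, set off from the other 7 arrays for Fos, Fosb, Atf3 and Maff and less so for Fosl2, Jun and Jund. These 2 arrays were the lowest of the 9 for 7 members (Fos, Fosb, Fosl2, Jun, Jund, Atf3 and Maff), all but Fosl1 and Batf. The same held for 2.93% of the 16023 genes above background. The 2 arrays were singled out because of these values, so this count is a description and was not tested.

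**Figure D1:**
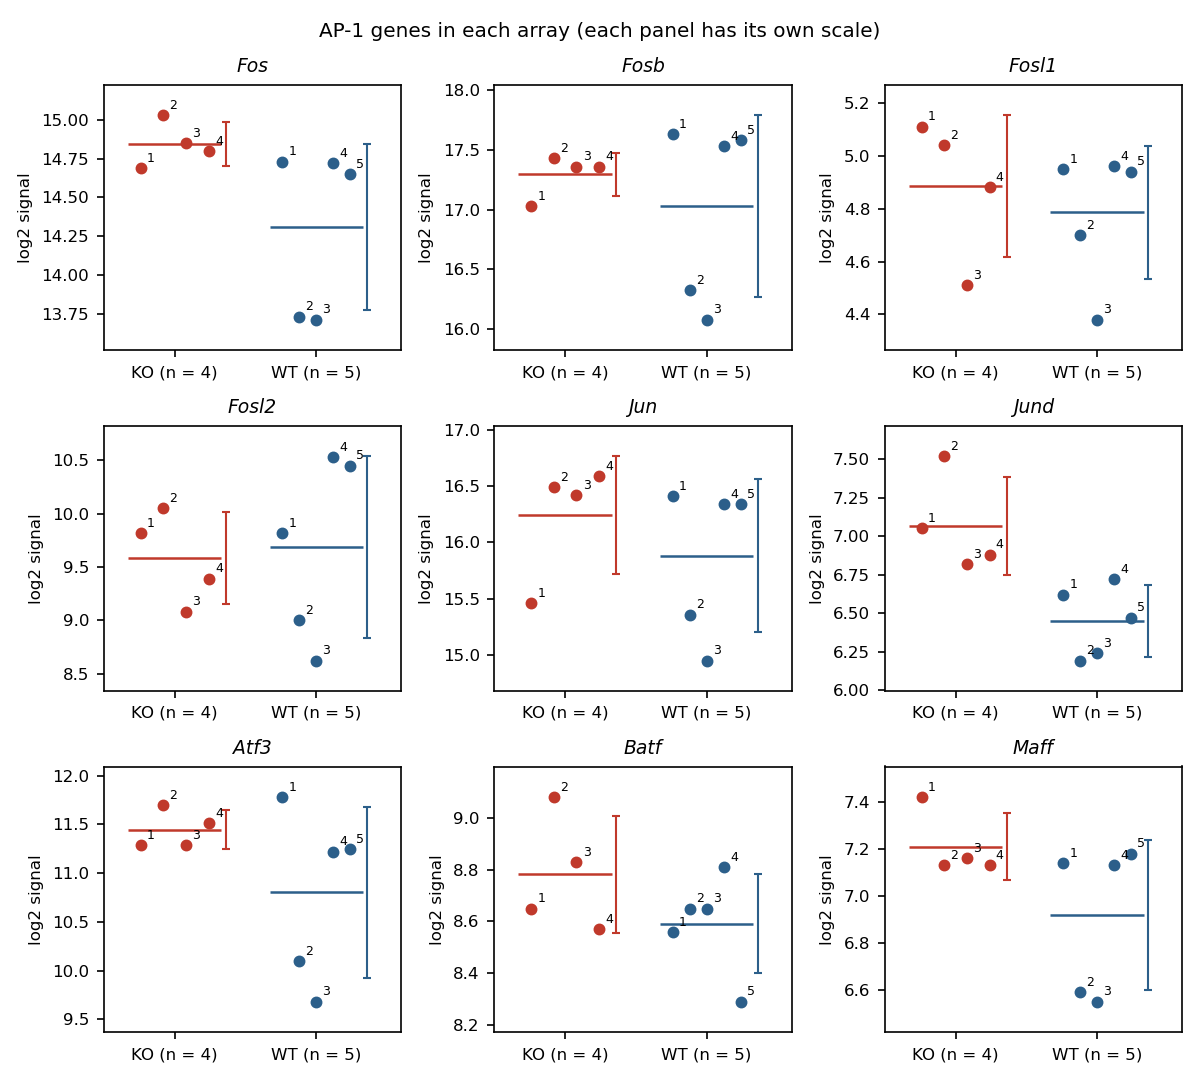
Log2 signal of the 9 AP-1 genes, with 1 point per array, the replicate number beside it, the group mean as a line and the SD as a bar (KO in red, n = 4; WT in blue, n = 5); each panel has its own scale. WT replicates 2 and 3 sit lowest for 7 of the 9 genes, while the Jund points of KO, from 6.82 to 7.52, all lie above those of WT, from 6.19 to 6.72.

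Among the FOS family, Fos, the archetype of an early response gene, had log2 signals of 14.69, 15.03, 14.85 and 14.80 in KO, against 14.73, 13.73, 13.71, 14.72 and 14.65 in WT. The KO arrays and 3 of the WT arrays shared the span from 14.65 to 15.03, and WT replicates 2 and 3 lay well below it. KO averaged 14.84 ± 0.14 (SD, n = 4) and WT 14.31 ± 0.54 (SD, n = 5). Their difference of 0.53 (SE 0.26, 95% interval -0.05 to 1.12) did not pass the test, with a limma adjusted p of 0.786 over all genes. Without WT replicates 2 and 3 it was 0.14.

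Fosb, whose protein resembles FOS and is induced with it, had 17.03, 17.43, 17.36 and 17.36 in KO, against 17.63, 16.33, 16.08, 17.53 and 17.58 in WT. The groups overlapped: all KO arrays lay between the pair of low WT arrays and the other 3 WT arrays. The difference was 0.26 (SE 0.36, interval -0.56 to 1.09, limma adjusted p = 0.822), and it turned to -0.29 without WT replicates 2 and 3.

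Fosl2 encodes FRA-2, which lacks the strong activation domain of FOS. Its signals were 9.82, 10.05, 9.08 and 9.39 in KO, against 9.82, 9.00, 8.62, 10.53 and 10.45 in WT. WT arrays marked both ends of the range, replicates 2 and 3 the lower and replicates 4 and 5 the upper end. The difference of -0.10 (SE 0.43, interval -1.09 to 0.89, limma adjusted p = 0.947) was the 1 negative difference among the members. It was -0.68 without WT replicates 2 and 3, and 0.11 without WT replicate 4. The difference of Fosl1 was 0.10 (SE 0.16, interval -0.27 to 0.47), from signals that were all below background.

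Jun, which encodes a main partner of FOS proteins and whose own product binds its promoter, had 15.46, 16.49, 16.42 and 16.59 in KO, against 16.41, 15.36, 14.95, 16.34 and 16.34 in WT. KO replicate 1 was low too, next to WT replicate 2, so Jun had 3 low arrays, 1 of them KO. The difference was 0.36 (SE 0.38, interval -0.51 to 1.23, limma adjusted p = 0.792). It was 0.62 without KO replicate 1 and -0.12 without WT replicates 2 and 3.

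Jund encodes the JUN protein that most cells make at rest and that is tied to restraint of growth. Its signals were 7.05, 7.52, 6.82 and 6.88 in KO, against 6.62, 6.19, 6.24, 6.72 and 6.47 in WT. Every KO array lay above every WT array, with 6.82 in KO replicate 3 next to 6.72 in WT replicate 4 at the border. KO averaged 7.07 ± 0.32 (SD, n = 4) and WT 6.45 ± 0.23 (SD, n = 5), a difference of 0.62 (SE 0.17, interval 0.23 to 1.0), or a 1.54-fold higher signal in KO (interval 1.18 to 2.01) if the deposited values are log2. Its unadjusted limma p was 0.00574 and the exact two-sided permutation p 0.00794, the smallest that 4 arrays against 5 allow, but the limma adjusted p over all genes was 0.786, so the difference did not pass. More Jund RNA per cell and more cells that make it cannot be told apart in such bulk samples.

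The Jund signal lay 1.35 above the mean background, and the highest background belonged to KO replicate 1. Negative control probesets had medians of 6.28, 6.23, 6.24 and 6.36 in KO, against 6.45, 6.32, 6.20, 6.47 and 6.89 in WT. Jund lay below this median in WT replicates 2 and 5 and close above it in WT replicates 1, 3 and 4. In KO it lay above this median in every array. The Jund difference was 0.59 after quantile normalization and 0.56 with each array centred on its median. It was 0.46 without WT replicates 2 and 3, 0.47 without KO replicate 2 and 0.63 without both KO replicate 1 and WT replicate 5. Markers of mature neutrophils were also higher in the KO arrays with most Jund. Their mean deviation (over S100a8, S100a9, Ltf, Ngp, Camp and Cxcr2, the 6 of 12 listed genes above background) was 2.53 and 2.17 in KO replicates 1 and 2, and -0.81 and -0.32 in KO replicates 3 and 4, against -1.37 to 0.36 in WT. The WT arrays did not show this order: WT replicate 3 had 0.36 with Jund at 6.24, and WT replicate 1 had -1.37 with Jund at 6.62. All 12 had higher means in KO, against 64.2% of all genes, and Lcn2, Mmp8, Mmp9, Retnlg, Ly6g and Cd177 had means below background. Cxcr2 did not follow the other 5, with 8.57 and 8.50 in KO replicates 1 and 2 and 8.61 and 8.75 in KO replicates 3 and 4.

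Values for markers of further cell types stand beside the Jund difference too. The mean deviation of T and NK cell markers (Cd3g, Klrb1c, Nkg7 and Il7r, the 4 of 11 measured above background) was 0.05 to 0.40 in KO, against -0.20 to -0.04 in WT, with no overlap, as for Jund. Nkg7 differed by 0.55 and Il7r by 0.34, while Cd3d, Cd3e, Cd4 and Cd8a had means below background. Of the 11 measured, 7 had higher and 4 lower means in KO, where 64.2% of all genes had higher ones. Of mast cell and basophil markers all 10 had higher means in KO, with a mean deviation of 0.08 to 0.54 in KO, against -1.29 to 0.34 in WT; Fcer1a differed by 1.21, Cma1 by 0.82 and Tpsb2 by 0.82. Of 12 measured B and plasma cell markers, 8 had higher and 4 lower means in KO. Their mean deviation was -0.11 to 0.31 in KO, against -0.47 to 0.68 in WT. An unadjusted limma p under 0.05 was found for 5, all higher in KO, against 3.82% of all genes. Ebf1 differed by 0.48, and Igll1, with a mean below background, by 0.67 (limma adjusted p = 0.438). None of these passed the adjusted threshold (limma adjusted p = 0.786 for each other gene given a difference). Higher means in KO were also found for 9 of 9 megakaryocyte and platelet markers and 12 of 12 stromal and endothelial markers. They were found for 8 of 13 monocyte and macrophage markers and 8 of 10 erythroid markers, against 64.2% of all genes. Without KO replicate 1 and WT replicate 5 the erythroid count fell to 3 of 10 and the megakaryocyte and platelet count to 6 of 9. The stromal and endothelial count was then 11 of 12 and the monocyte and macrophage count 6 of 13, against 51.0% of all genes. For the LSK and stem cell markers it was then 5 of 14. The part of all these markers, and of the neutrophil markers, in the Jund difference was not tested.

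Among the related bZIP genes, Atf3, a repressor and activator induced by many kinds of cell stress, varied most of the members over the arrays. It had 11.29, 11.70, 11.29 and 11.51 in KO, against 11.78, 10.10, 9.68, 11.22 and 11.25 in WT. The highest and the lowest value both came from WT, and KO spanned 0.41 where WT spanned 2.10. The difference of 0.64 (SE 0.42, interval -0.31 to 1.59, limma adjusted p = 0.786) was the largest of the 9 members, and shrank to 0.03 without WT replicates 2 and 3.

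Maff, a small MAF protein without an activation domain that pairs with FOS and with NRF2-type factors, had 7.42, 7.13, 7.16 and 7.13 in KO, against 7.14, 6.59, 6.55, 7.13 and 7.18 in WT. Apart from WT replicates 2 and 3, and from 7.42 in KO replicate 1, all arrays lay between 7.13 and 7.18. The difference was 0.29 (SE 0.16, interval -0.07 to 0.66, limma adjusted p = 0.786), and 0.06 without WT replicates 2 and 3.

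Batf, which pairs with JUN proteins and works with the interferon regulatory factors IRF4 and IRF8, was the exception among the members above background. It had 8.65, 9.08, 8.83 and 8.57 in KO, against 8.56, 8.65, 8.65, 8.81 and 8.29 in WT. Here WT replicates 2 and 3 lay in the middle of the range. Their value, 8.65, stood in 3 arrays of different mice, as did 7.13 for Maff. Repeats of this kind were also found outside the members. Ywhaz, for example, had 11.95 in KO replicates 1 and 3 and in WT replicates 1, 4 and 5. Their cause was not tested. The difference was 0.19 (SE 0.13, interval -0.11 to 0.49, limma adjusted p = 0.786), which became 0.0913 when KO replicate 2 was left out and 0.11 when WT replicate 5 was.

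In the comparison of KO with WT, 0 of the 9 members passed an adjusted p of 0.05 in limma, where 0.00332% of all genes (1 of 30142, Abi1) did. At an unadjusted p under 0.05 there was 1 member, Jund, against 5.01% of all genes, and Jund was also the 1 member with all KO arrays above all WT arrays, against 0.68% of all genes. Higher means in KO were found for 8 of the 9 members, with a median difference of 0.29, against 64.2% and 0.03 over all genes. Without WT replicates 2 and 3 the count was 5 of 9 and the median 0.03, against 64.6% and 0.04 over all genes. Without KO replicate 1 and WT replicate 5 it was 9 of 9 with a median of 0.49, against 51.0% and 0.002 over all genes.

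**Figure D2:**
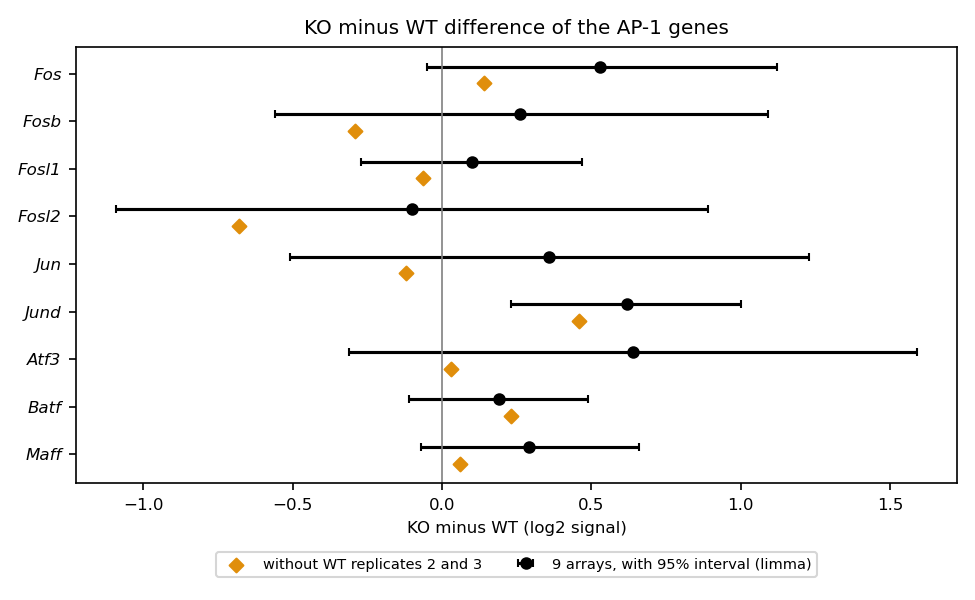
Difference KO minus WT in log2 signal for each AP-1 gene over 9 arrays (black points, with limma's 95% interval) and without WT replicates 2 and 3 (orange diamonds). The interval of Jund, 0.23 to 1.0, lies above 0, and the differences of Fos, Fosb, Jun, Atf3 and Maff move toward or past 0 when these 2 WT arrays are left out, while Jund stays at 0.46.

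Co-variation among the arrays was measured by the correlation of each pair of members over the 9 arrays, for 36 pairs, 28 of them between members above background. Over these 28 pairs Pearson's r had a median of 0.67 and ran from -0.06 to 0.96. It was positive in 27. After Benjamini-Hochberg adjustment over the 36 pairs, 6 of the 28 had an exact permutation p under 0.05 for Pearson's r, and 1 (Fos and Jun) for Spearman's rho. Fos and Atf3 had r = 0.96 and rho = 0.80, with exact permutation p of 0.00367 (adjusted 0.0298) and 0.0122 (adjusted 0.124). Fos and Jun had r = 0.86 and rho = 0.92, with exact permutation p of 0.00221 (adjusted 0.0298) and 0.000981 (adjusted 0.0353).

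The other 4 pairs were Fos with Jund, Fosb with Jun, Fosb with Atf3, and Jun with Atf3, at r of 0.81, 0.92, 0.94 and 0.87 and rho of 0.78, 0.51, 0.58 and 0.80, each with an exact permutation p for r of 0.00209 to 0.00496 (adjusted 0.0298). With the group means removed the median r was 0.74. All members were measured in the same arrays.

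For Fos, Fosb, Atf3 and Maff the 9 arrays formed separate sets, WT replicates 2 and 3 and the other 7, and the relation was therefore examined within the 7. There the median r of the 28 pairs was -0.04, 13 were positive, and 0 of the 36 pairs had an adjusted exact permutation p under 0.05 (smallest 0.332), with 4 of the 28 at an unadjusted p under 0.05. Fos and Atf3 had r = 0.51 and rho = 0.58 (exact permutation p = 0.249 and 0.187), Fosb and Jun 0.75 and -0.05, and Fos and Fosb -0.04 and -0.20. Fos and Jun had r = 0.43 and rho = 0.83 (exact permutation p = 0.236 and 0.0302, adjusted 0.781 and 0.711). Leaving out the 2 arrays farthest from the median of the first gene gave the same 7 arrays for these pairs. The r of Fos with Fosb over 9 arrays thus rests on WT replicates 2 and 3. For Fos with Atf3 and with Jun r was lower in the 7 but stayed positive, and Fos with Jun kept a rho of 0.83. Fosb with Jun had a high r in the 7 too, but a rho near 0.

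Some pairs kept or gained a high r among the 7 arrays. Fos and Jund, at r = 0.81 over all 9, had r = 0.82 and rho = 0.57 (exact permutation p = 0.0329 and 0.2, adjusted 0.332 and 0.711), and Fos and Batf had r = 0.83 and rho = 0.71 (exact permutation p = 0.0222 and 0.0881), where r was 0.26 over all 9. Jun and Maff ran against each other at r = -0.98 and rho = -0.67 (exact permutation p = 0.019 and 0.118, adjusted 0.332 and 0.711), with KO replicate 1 the lowest of the 7 for Jun and the highest for Maff.

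**Figure D3:**
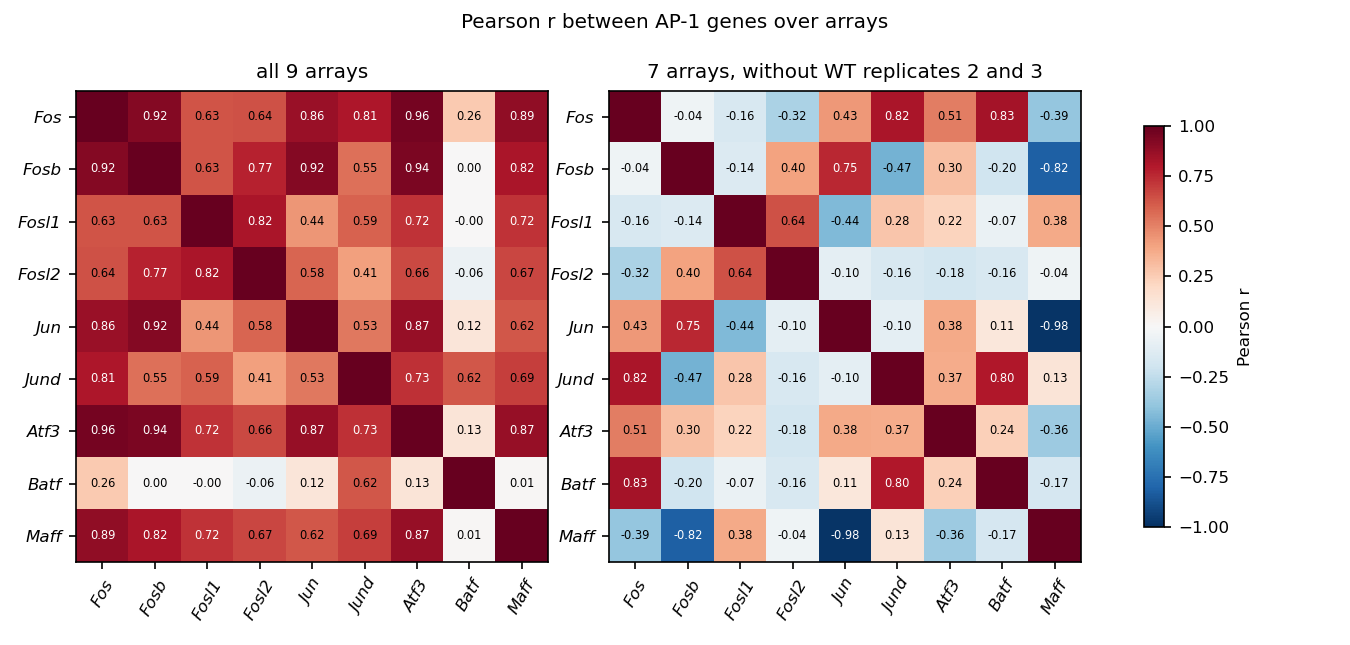
Pearson's r for each pair of AP-1 genes over all 9 arrays (left) and over the 7 arrays without WT replicates 2 and 3 (right), red for positive and blue for negative values. Fos, Fosb, Jun, Atf3 and Maff correlate at 0.62 to 0.96 on the left and from -0.98 to 0.75 on the right.

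The mean deviation of the 8 members above background from their own means was 0.06, 0.44, 0.11 and 0.16 in KO, against 0.22, -0.62, -0.80, 0.26 and 0.16 in WT. All 8 members were below their own means in WT replicates 2 and 3, and in KO replicate 2 none was. In WT replicates 2 and 3 background was 5.30 and 5.37 (5.29 to 5.64 over all arrays) and the probability that a positive control outshines a negative one 0.822 and 0.821. The median over named genes was 5.51 in WT replicate 2, the lowest of the 9 arrays, and 5.57 in WT replicate 3. The negative control median was 6.32 in WT replicate 2 and 6.20, the lowest of the 9, in WT replicate 3. The part of these values in the pattern was not tested.

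The genes whose array pattern was most like this mean deviation were sought among 11290 named genes above background, without the members and predicted genes. The measure was Pearson's r over 9 arrays, and 30 genes exceeded 0.9. The highest were Ywhaz at 0.988, which encodes a 14-3-3 protein and whose own signals spanned only 11.83 to 11.98, and Nfkbiz at 0.979, an inducible regulator of NF-kappaB. Next came Egr1 at 0.974, an early response zinc finger gene, Dusp2 at 0.973, a phosphatase that switches MAP kinases off, and Zfp36l1 at 0.956, which speeds the decay of AU-rich mRNAs. The clock gene Per1 (0.956), the kinase-like gene Trib1 (0.951), the glucose transporter gene Slc2a1 (0.946), Egr3 (0.944) and the TGF-beta inhibitor gene Smad7 (0.943) completed the 10. Within the 7 arrays their r was 0.43 for Smad7, the lowest, and 0.85 for Egr1, the highest.

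Per1 shows the step in its values, with 10.09, 10.31, 10.10 and 10.24 in KO, against 10.48, 9.54, 9.16, 10.34 and 10.05 in WT. As for Fos, WT replicates 2 and 3 alone were low. The 5 genes with the most opposite pattern were Sec11a (-0.969), a signal peptidase gene with signals from 9.74 to 9.86, and Spc25 (-0.967), Kif20b (-0.961), Cenpf (-0.956) and Cenpe (-0.956), genes of kinetochores and of the mitotic motor proteins. Cenpf was 8.75, 8.46, 8.67 and 8.73 in KO, against 8.73, 9.15, 9.47, 8.73 and 8.53 in WT, highest where the AP-1 genes were lowest.

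**Figure D4:**
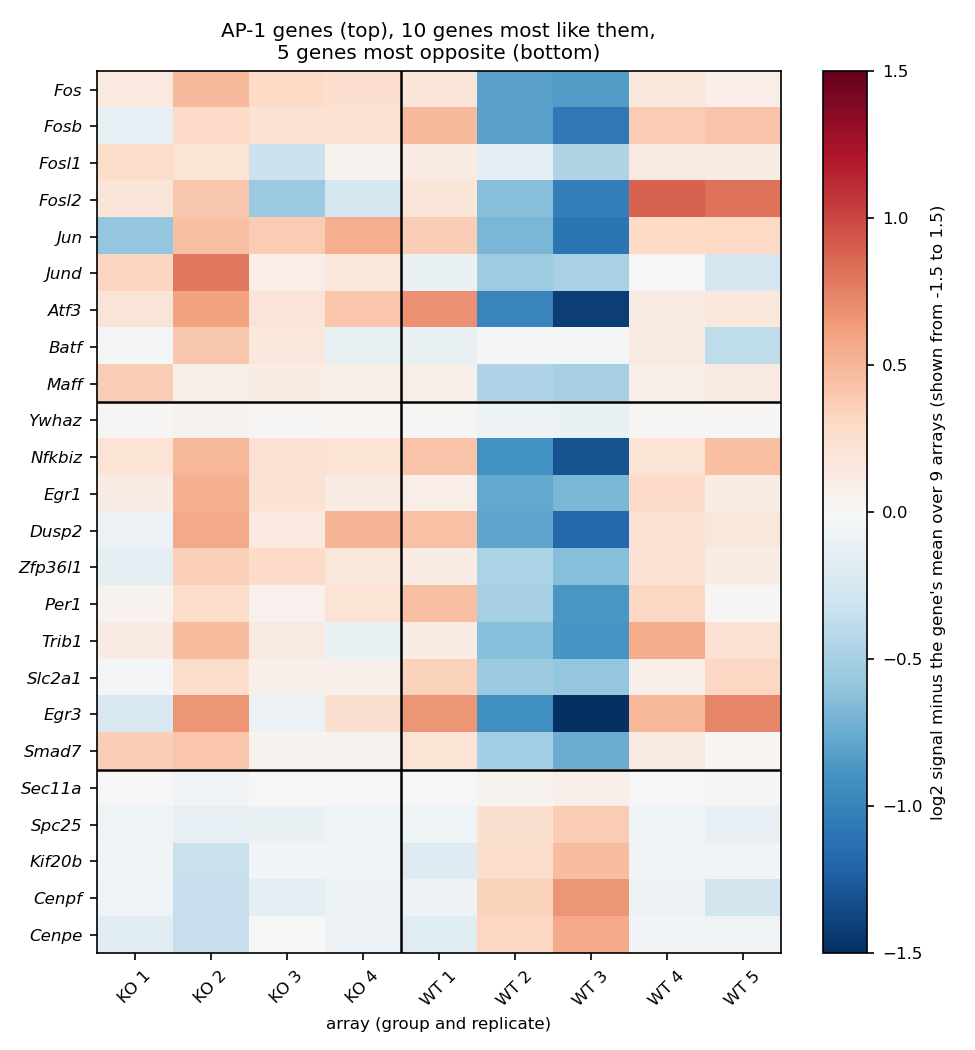
Log2 signal of each gene minus its mean over the 9 arrays, for the 9 AP-1 genes (top block), the 10 genes most like them and the 5 most opposite (bottom block); columns are the KO arrays, then the WT arrays, and red is above the gene's mean. The columns of WT replicates 2 and 3 are blue for the AP-1 genes, with Batf close to 0, and red for the 5 opposite genes.

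Single members had matches of their own. Fosl2 ran with Lax1 (r = 0.971 over 9 arrays and 0.96 over the 7), a lymphocyte signalling adaptor gene, with Lsp1 (0.924 and 0.92) and with Pik3ap1 (0.923 and 0.85), so its pattern was not that of WT replicates 2 and 3 alone. Jund ran with Scgb1a1 (0.954 and 0.92), with the early response gene Ier2 (0.942 and 0.88) and with the keratin gene Krt18 (0.939 and 0.90). The signals of Scgb1a1, from 5.37 to 5.89, were near background, which was 5.29 to 5.64 over the arrays. Jun ran with Ppp1r15a (0.970 and 0.89), a stress gene that restores translation, which was also low in KO replicate 1: 11.59, 12.62, 13.01 and 12.89 in KO, against 12.67, 11.30, 10.64, 12.28 and 12.33 in WT.

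Other early response genes shared the low signals of WT replicates 2 and 3. Of the 36 measured, 26 (72.2%) had these arrays as their 2 lowest, against 2.82% of all named genes. Their mean deviation was 0.12 to 0.48 in KO, against -0.72 and -0.82 in WT replicates 2 and 3 and 0.05 to 0.32 in the other WT arrays. Means were higher in KO for 32 of the 36, with a median difference of 0.35, against 64.2% and 0.03 over all genes. Without WT replicates 2 and 3 they were higher for 22 of the 36 with a median of 0.04, against 64.6% and 0.04 over all genes. None passed the adjusted threshold, and 8 had an unadjusted limma p under 0.05, all higher in KO, against 3.82% of all genes.

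Klf6, a zinc finger gene induced by stress, had 14.90, 15.31, 14.80 and 14.52 in KO, against 14.62, 12.94, 13.08, 14.29 and 13.60 in WT (difference 1.18, SE 0.37, limma adjusted p = 0.786). Ier2 had 12.71, 13.61, 13.01 and 12.52 in KO, against 12.61, 11.60, 11.59, 12.42 and 11.93 in WT (difference 0.93, SE 0.29). In both the lowest KO value lay under the highest WT value, so the groups overlapped. Ier3, which also belongs to the target list, differed by 0.66.

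Lists of regulators that act on AP-1 showed little of the step. In WT replicates 2 and 3 the mean deviation was -0.04 and -0.06 for the kinases and -0.03 and -0.16 for SRF and related factors. For cofactors and turnover genes it was 0.02 and -0.02. These arrays were the 2 lowest for 4 of 28 kinases (14.3%), 1 of 10 SRF and related factors (10%) and 2 of 18 cofactors and turnover genes (11.1%). Each is a larger share than the 2.82% of all named genes. Of the MAP kinases and the kinases above and below them, 28 of 33 were measured, and 8 had higher and 20 lower means in KO (median difference -0.07). The JNK kinase gene Map2k4 was the 1 with an unadjusted limma p under 0.05 (difference -0.13, SE 0.056, adjusted p = 0.786). Of SRF, the ternary complex factors and other factors that bind early response promoters, 2 of 10 had higher means in KO and 8 lower, none at an unadjusted p under 0.05; Mrtfb and Mrtfa, actin-sensing partners of SRF, differed by -0.29 and -0.24. Of cofactors and turnover genes, 4 of 18 had higher and 14 lower means, and Ets1 (difference 0.24, SE 0.095) alone had an unadjusted p under 0.05. Over all genes 64.2% had higher means in KO. KO replicate 1 was the lowest array in the mean deviation of all 3 lists, at -0.20, -0.31 and -0.28. Without it and WT replicate 5 the counts of higher means were 13 of 28, 4 of 10 and 9 of 18, against 51.0% of all genes.

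MAP kinase phosphatases end the signal that induces AP-1. Means were higher in KO for 9 of the 11 measured (median difference 0.10), against 64.2% and 0.03 over all genes, and none had an unadjusted limma p under 0.05. Dusp2 had 10.26, 10.91, 10.49 and 10.85 in KO, against 10.79, 9.55, 9.17, 10.57 and 10.52 in WT. The step of the AP-1 genes was seen in it and in Dusp5, which had 11.21, 11.64, 10.54 and 10.53 in KO, against 10.68, 9.92, 9.97, 11.28 and 10.91 in WT. The differences were 0.51 and 0.43, and for these 2 of the 11 (18.2%, against 2.82% of all named genes) the 2 lowest arrays were WT replicates 2 and 3.

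Other bZIP genes of the wider family were flatter. Of 28 listed 24 were measured, with 13 higher and 11 lower means in KO, where 64.2% of all genes had higher ones. The median difference was 0.03, equal to that over all genes. Their mean deviations were -0.05 to 0.11 in KO and -0.09 to 0.04 in WT. Only Mafk, a small MAF gene, of the 24 had WT replicates 2 and 3 as its 2 lowest arrays. The stress response factor gene Atf4 had 10.87 to 11.26 in KO, against 10.62 to 10.87 in WT (difference 0.31, SE 0.096). Ddit3, a target of ATF4, differed by 0.81 (SE 0.35) and Nfe2l2, which encodes NRF2, by 0.17 (SE 0.065). These 3 of 24 had an unadjusted limma p under 0.05, against 5.01% of all genes, and an adjusted p of 0.786.

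**Figure D5:**
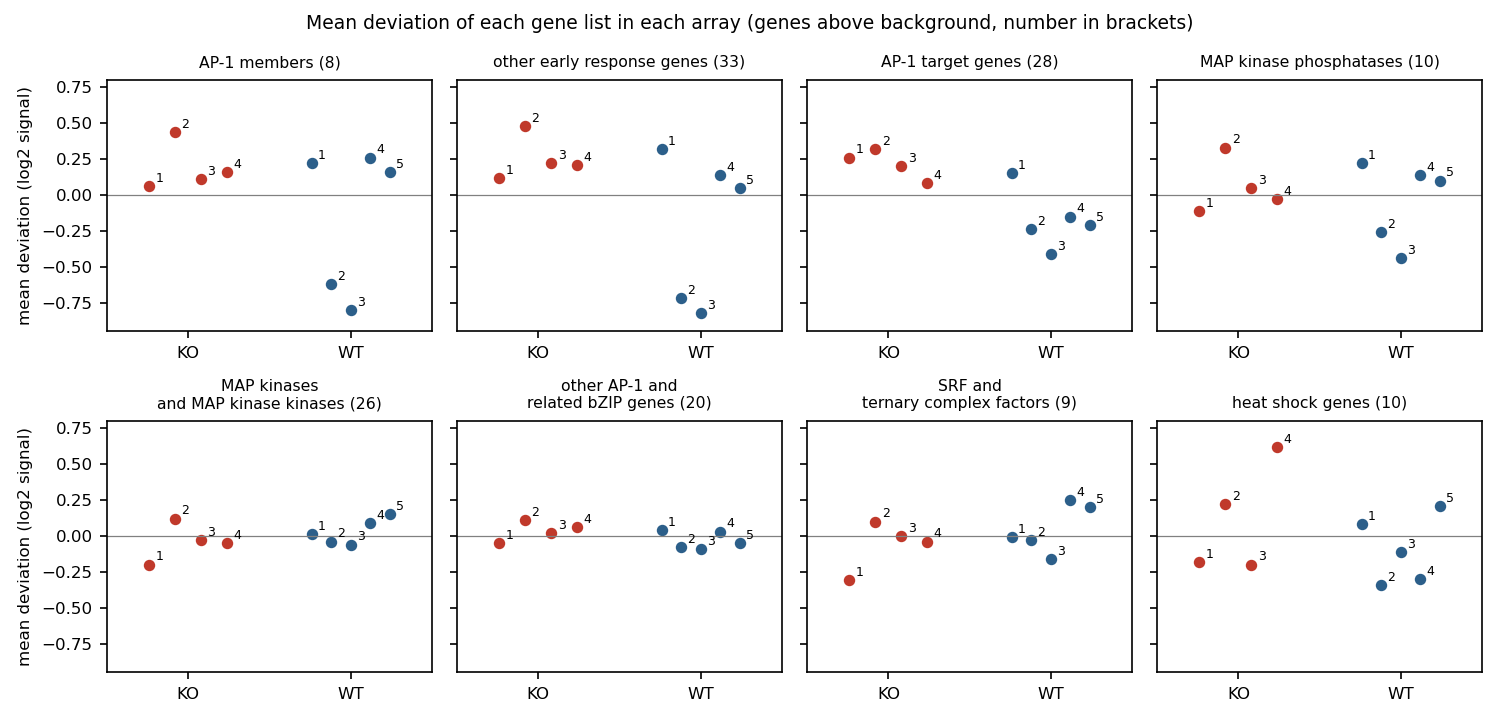
Mean deviation in log2 signal of the genes above background of 8 lists (number of genes in brackets) from their means over 9 arrays, with 1 point per array and the replicate number beside it (KO red, WT blue). The points of WT replicates 2 and 3 are at -0.62 and -0.80 for the AP-1 genes and at -0.72 and -0.82 for other early response genes, and between -0.09 and -0.04 for the kinases and the other bZIP genes.

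Genes known from textbooks as AP-1 targets were compared last. Of the 42 listed 38 were measured; the KO mean exceeded the WT mean for 33 (median difference 0.20), and 8 had an unadjusted limma p under 0.05, all higher in KO, against 3.82% of all genes. Over all genes 64.2% had higher means in KO. Without WT replicates 2 and 3 there were 29 of 38 (median 0.10), against 64.6% of all genes. Without KO replicate 1 and WT replicate 5 there were 26 of 38 (median 0.14), against 51.0%. WT replicates 2 and 3 were the 2 lowest arrays for 10 of the 38 (26.3%, against 2.82% of all named genes). The mean deviation was -0.24 and -0.41 there, 0.15, -0.15 and -0.21 in WT replicates 1, 4 and 5, and 0.08 to 0.32 in KO. None of the targets passed the adjusted threshold. Cxcl2, a chemokine that attracts neutrophils, had 10.55, 9.92, 9.47 and 9.00 in KO, against 9.21, 7.31, 7.31, 8.05 and 9.02 in WT (difference 1.56, SE 0.50, limma adjusted p = 0.786). The groups overlapped by a small margin, with KO replicate 4 at 9.00 and WT replicates 1 and 5 at 9.21 and 9.02.

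The cytokine gene Tgfb1 had 13.36, 13.64, 13.75 and 13.53 in KO, against 13.43, 13.27, 13.27, 13.25 and 13.02 in WT (difference 0.32, SE 0.099). KO replicate 1 alone fell into the WT range. Ier3 had 6.28, 6.47, 5.89 and 5.87 in KO, against 5.75, 5.37, 4.92, 5.75 and 5.57 in WT (difference 0.66, SE 0.20), with no overlap. All KO arrays lay above all WT arrays for 0.68% of all genes. The Ier3 signals were near background, which was 5.30 in WT replicate 2 and 5.37 in WT replicate 3. The collagenase and stromelysin genes Mmp1a, Mmp3, Mmp10 and Mmp13, classical AP-1 targets of fibroblasts, had means below background. The values of the neutrophil markers given with Jund stand beside these genes too, and their part was not tested.

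In their mean, heat shock genes, which respond to misfolded proteins, followed another order of arrays. The KO mean was higher for 8 of 10 measured (median difference 0.19), against 64.2% and 0.03 over all genes. Their mean deviation was -0.18, 0.22, -0.20 and 0.62 in KO, against 0.08, -0.34, -0.11, -0.30 and 0.21 in WT. This mean leans on Hspa1a, which varied most of the 10. Hspa1a had 9.12, 11.54, 7.52 and 12.81 in KO, against 9.82, 7.82, 9.64, 7.82 and 12.44 in WT. The order of arrays without Hspa1a was not examined. Bag3 had the 1 unadjusted limma p under 0.05 (difference 0.17, SE 0.059). For 2 of the 10 (20%, against 2.82% of all named genes) the 2 lowest arrays were WT replicates 2 and 3. Of the marker lists of other blood and stromal cells, the count of genes lowest in these 2 arrays was 1 of 12 for B and plasma cells and 0 for neutrophils, monocytes and macrophages, erythroid cells, megakaryocytes and platelets, mast cells and basophils, T and NK cells, and stromal and endothelial cells. WT replicate 5 was low in erythroid markers (mean deviation -2.94, against -0.72 to 1.02 in the other arrays), while its AP-1 deviation of 0.16 lay within the KO range of 0.06 to 0.44.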

How the data were processed

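Expression was measured on 9 Affymetrix whole-transcript arrays, 4 KO and 5 WT, from 5 ng of pre-amplified total RNA each, per the labels' protocols; the replicates are labelled as biological. The values of 72688 probesets were deposited by the authors as signals and were read as log2 from their range, 1.84 to 19.45. The sources used here do not give the log base, background correction, normalization or build; Partek 6.6 is named in the submitters' processing notes. Controls (6732 probesets) were set aside, and of the rest 30604 carried 1 symbol, 2146 several and 33206 were unlisted; 827 symbols were updated through RefSeq identifiers. The brightest probeset by mean stood for each of 30142 genes.

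KO and WT were compared over all genes with lmFit and eBayes of limma 3.58.1, under R 4.3.3 (Benjamini-Hochberg, threshold 0.05), and single genes by exact two-sided permutation over 126 splits. Correlations used exact permutation over all orders of the arrays. Precision is limited by the number of arrays. The fit was tested on simulated data. The members and lists were chosen with earlier results of these data known. Of each list, up to 3 genes per direction with the smallest unadjusted p under 0.05 were named, or else the 2 largest differences; the most similar genes were named by rank of r, without predicted genes. Further list genes in the text were picked with their values in view. Alternatives were other scalings, a filter on dim genes, mean probesets, a trend and robust variance, array weights, arrays left out and a replicate block.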

Additional observations from a re-analysis of the deposited data

Results flagged for a closer look

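Dixon's test was applied to the KO and the WT values of each of the 9 AP-1 genes, 18 groups in all, and chance flags about 1 group in 20. It marked 2 values, both in KO replicate 1, the array with the lowest median correlation with the others. Jun was 15.46 there, while KO replicates 2 to 4 had 16.42 to 16.59. Maff was 7.42 there, while KO replicates 2 to 4 had 7.13 to 7.16. Without this array the differences between KO and WT were 0.62 for Jun and 0.22 for Maff.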

How the results depend on the processing

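Over 18 alternatives the 9 members gave 161 differences, of which 151 kept the direction, 10 turned and 0 passed the adjusted threshold (smallest limma adjusted p = 0.665). Without WT replicates 2 and 3, Fosb was -0.29, Jun -0.12 and Fosl1 -0.065, 5 members had higher means in KO in place of 8, and the median r of the members above background was -0.04 in place of 0.67. With array weights Fosl1 was -0.00394 and 2 genes passed the threshold in place of 1, Igll1 being added to Abi1. Without KO replicate 1 and WT replicate 5 Fosl2 was 0.0142. Leaving out each array in turn gave -0.0025 (without WT replicate 3) to 0.22 for Fosl1 and -0.37 to 0.11 for Fosl2, which was 0.0693 without KO replicate 3, 0.0925 without WT replicate 5 and 0.11 without WT replicate 4; it gave 0.47 to 0.70 for Jund and 0.53 to 0.73 for the median r. The cause was not tested. Replicate numbers did not pair the arrays: deviations of KO and WT arrays with the same number correlated at -0.18, 0.15, -0.01 and 0.27. With the number as a replicate block Fosl2 was 0.0925, the limma adjusted p of Jund 0.81, and 1 gene passed. Over all alternatives Jund lay between 0.46 and 0.70, with limma adjusted p from 0.665 to 0.964. Of the genes with an unadjusted p under 0.05, 1150 were higher and 359 lower in KO, against 838 and 801 after quantile normalization and 772 and 690 with arrays centred on their medians. List counts without arrays were added after seeing the data.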
